A study of Mus musculus with 8 samples.

Results

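Mitochondrial DNA (mtDNA) is the small circular genome inside mitochondria, and its transcripts were measured here in activated B cells with and without the translation initiation helicase EIF4A1. The members were every gene of the deposited tables whose symbol starts with mt-, a rule by name that was set with earlier results of these data known. This gave 37 genes of the 53242 in the tables, of which 13 encode proteins, 2 are ribosomal RNAs and 22 are transfer RNAs, and these names matched all 37 genes annotated on the 16299 bases of mtDNA in the mouse assembly GRCm39.

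RNA-seq libraries were made from splenic B cells of C57BL/6 mice aged 8 to 12 weeks, 1 animal per library. The cells had been activated for 24 h on CD40LB, fibroblast feeder cells irradiated with 120 Gy that present CD40 ligand, in medium with 40 ng/ml IL4, and the feeders were then removed with magnetic beads against H-2Kd. The 4 control mice were Eif4a1+/+ CD23-cre and the 4 Eif4a1 KO mice were Eif4a1fl/fl CD23-cre, so both genotypes carried the Cre transgene, which acts from splenic immature B cells onwards. The labels give batch A for replicates 1 (male) and 2 (female) and batch B for replicates 3 (male) and 4 (female). Replicate 1 of both genotypes was set aside by the study for low cell viability. The tests therefore compared replicates 2 to 4, 3 against 3, and the values of replicate 1 are given beside them.

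Mammalian mtDNA is transcribed from both strands into long precursors, and most messenger and ribosomal RNAs are freed when the transfer RNAs lying between them are cut out. Its proteins are core subunits of the respiratory chain complexes I, III and IV and of the ATP synthase, complex V, and they are made on mitochondrial ribosomes whose RNA is mitochondrial and whose proteins are nuclear. Cytosolic initiation factors do not take part in that translation, but every protein that copies, processes or translates mtDNA is made in the cytosol and imported.

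Between 31727557 and 43210858 reads were counted per library. Eif4a1 was at 825, 748, 939 and 881 CPM (counts per 1000000 counted reads) in controls 1 to 4 and at 596, 556, 641 and 689 CPM in the KO libraries. Its log2 fold change was -0.44 ± 0.05 (SE, adjusted p = 0.000115), past the adjusted p and short of the fold threshold of 0.5 used below. All 4 KO libraries lay below all controls, where 36.9% of all genes tested did not overlap. The gene-wide counts also take reads from exons outside the floxed part, and the part of such reads was not tested. The summed level of 8 B cell markers ran from 6645 to 7773 CPM in the controls and from 7021 to 7450 CPM in the KO. Of the 8, 4 were called lower, and of the other marker genes tested 1 of 10 for fibroblasts was called lower and 2 higher, 0 of 2 for T cells and 1 of 3 for myeloid cells higher, where 25.3% of all genes tested were called. The summed levels of markers of other cells were low: 52.7 to 96.0 CPM for 12 fibroblast markers, 10.4 to 24.5 CPM for 7 T cell markers and 4.09 to 8.96 CPM for 6 myeloid markers, with Postn, Cd3g and S100a8 at 0 in every library. The ranges for control and KO were 60.2 to 96.0 and 52.7 to 81.7 CPM for fibroblasts, 14.5 to 24.5 and 10.4 to 19.5 CPM for T cells, and 4.09 to 8.14 and 7.31 to 8.96 CPM for myeloid cells. The part of such cells in the mtDNA counts was not tested.

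The mtDNA genes lie end to end, so that a read of 50 bases often touches 2 of them. The sequences at the borders of the rRNA genes are shown because the results turn on these transcripts. All are from the annotated strand of GRCm39, with bases of the rRNA gene in capitals and bases of its neighbours in lower case. The gene for 12S rRNA, mt-Rnr1 (chrM:70-1024), is separated by 1 base from the phenylalanine tRNA mt-Tf (chrM:1-68), and the valine tRNA mt-Tv (chrM:1025-1093) fills the space between it and the 16S rRNA gene mt-Rnr2 (chrM:1094-2675). The leucine tRNA mt-Tl1 (chrM:2676-2750) then borders mt-Nd1 (chrM:2751-3707).
start of mt-Rnr1 (chrM:40-99): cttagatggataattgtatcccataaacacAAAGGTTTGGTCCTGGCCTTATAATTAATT
end of mt-Rnr1 (chrM:995-1054): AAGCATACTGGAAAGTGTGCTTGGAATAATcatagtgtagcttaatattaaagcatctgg
start of mt-Rnr2 (chrM:1064-1123): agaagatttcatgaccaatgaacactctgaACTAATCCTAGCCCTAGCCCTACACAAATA
end of mt-Rnr2 (chrM:2646-2705): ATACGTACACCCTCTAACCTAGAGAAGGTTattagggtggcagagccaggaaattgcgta
The whole of the 3 tRNAs around the rRNA genes follows, since they flank the 2 rRNA genes.
mt-Tf: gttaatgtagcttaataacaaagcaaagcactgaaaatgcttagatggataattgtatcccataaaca
mt-Tv: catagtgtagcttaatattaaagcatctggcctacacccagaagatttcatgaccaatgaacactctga
mt-Tl1: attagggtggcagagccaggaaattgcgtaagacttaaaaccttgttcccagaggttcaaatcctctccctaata

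Of the mtDNA transcripts with counts enough to test, 1 differed past both thresholds. mt-Rnr1, the RNA core of the small mitochondrial ribosomal subunit, was lower in the Eif4a1 KO at 0.424 times the control level (95% interval 0.351 to 0.512). It was at 274, 158, 276 and 294 CPM in controls 1 to 4 and at 122, 91.9, 95.5 and 113 CPM in KO 1 to 4. Every KO library lay below every control, and control 2 was the lowest control. The log2 fold change was -1.24 ± 0.12 (SE, edgeR quasi-likelihood test, adjusted p = 5.43e-05). A gene is called here when its adjusted p is under 0.05 and its log2 fold change is beyond 0.5 in either direction. In these bulk libraries, less mt-Rnr1 per cell and fewer cells with much of the transcript cannot be told apart. How the libraries were enriched or depleted for RNA classes is not given in the sources used here, and its part in the difference was not tested.

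The difference in mt-Rnr1 was seen in both sexes and both batches. The log2 ratio of KO to control was -1.17 between the batch A males, -0.78 between the batch A females, -1.53 between the batch B males and -1.39 between the batch B females. An exact permutation test of all 8 libraries, two-sided, gave p = 0.0286, the smallest that 4 against 4 allows, and no adjustment was made for the 37 genes so tested.

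The 16S rRNA mt-Rnr2, which forms the core of the large subunit, was also lower, by less. It stood at 1437, 1131, 1104 and 1690 CPM in the controls and at 992, 959, 1030 and 1044 CPM in the KO libraries. The KO libraries again sat below all controls, with KO 4 and control 3 closest. The log2 fold change of -0.34 ± 0.09 (adjusted p = 0.0140) passed the adjusted p and not the fold threshold. The adjusted p was 0.0956 in edgeR without the replicate block and 0.194 in DESeq2, and the log2 fold change was -0.17 without replicate 4.

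**Figure D1:**
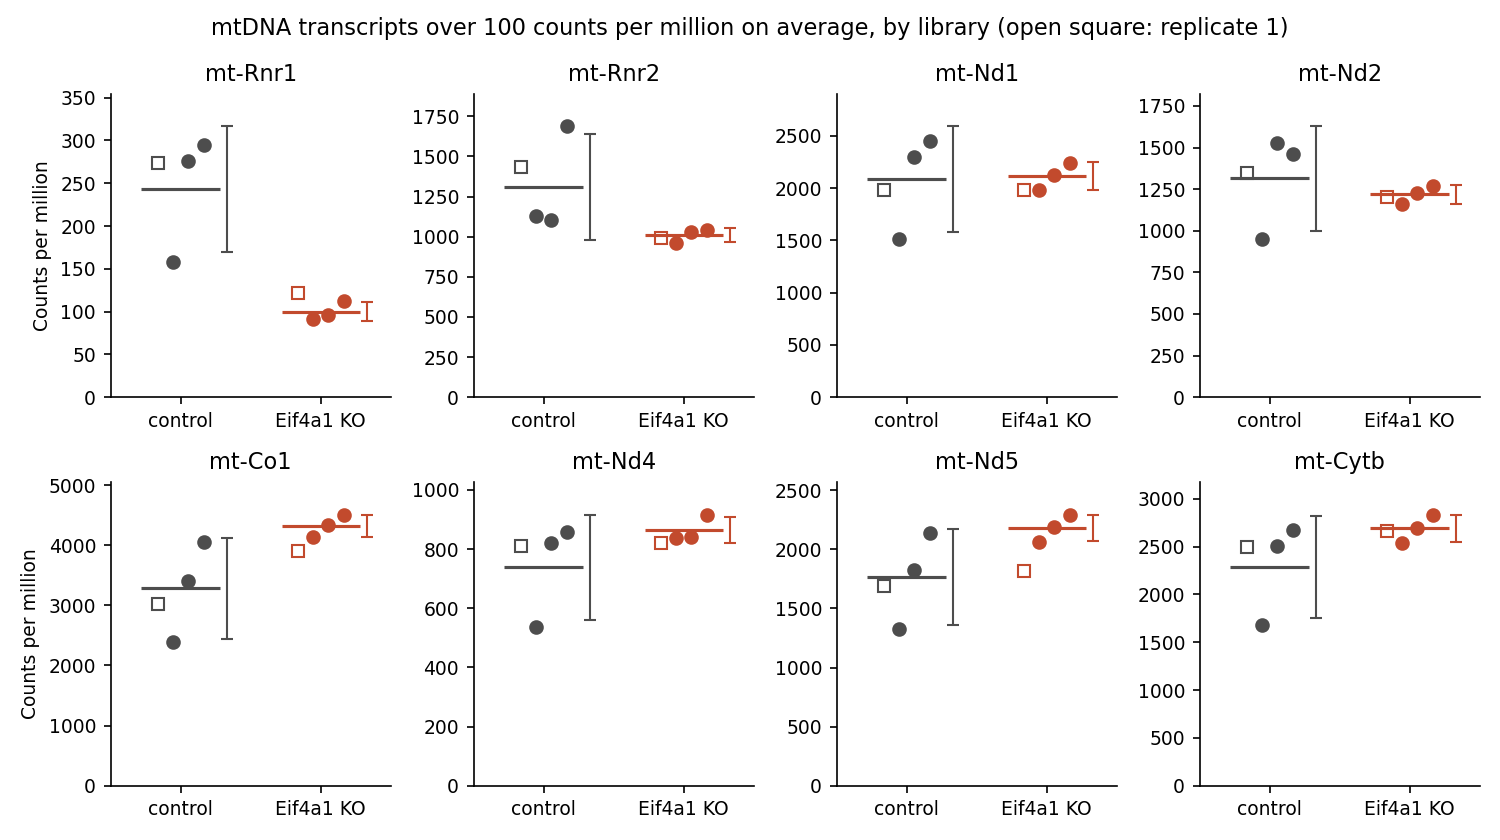
CPM (vertical axes, linear from 0) of the 8 mtDNA genes with most reads, by genotype, with 1 symbol per library. Open squares are replicate 1, filled circles replicates 2 to 4, lines the mean and bars the SD of replicates 2 to 4. For mt-Rnr1 the KO libraries lie at 91.9 to 122 and the controls at 158 to 294 CPM, while for mt-Nd1 the KO libraries lie inside the range of the controls.

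The same counts of mt-Rnr1 were also set against another mtDNA transcript of the same library. For every 100 counts of mt-Nd1, a complex I subunit transcribed downstream from the same strand, there were 13.8, 10.5, 12.0 and 12.0 counts of mt-Rnr1 in controls 1 to 4. In KO 1 to 4 there were 6.13, 4.64, 4.48 and 5.03. The genotypes did not overlap, and the means of replicates 2 to 4 were 11.5 ± 0.879 and 4.72 ± 0.278 (SD, n = 3). The same ratio for mt-Rnr2 was 72.5, 74.9, 48.0 and 68.9 in the controls and 50.0, 48.5, 48.4 and 46.6 in the KO. Here control 3 fell among the KO libraries. This ratio to mt-Nd1 was computed after the counts had been seen. It uses the same counts of the rRNAs and is not a second observation of their difference.

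**Figure D2:**
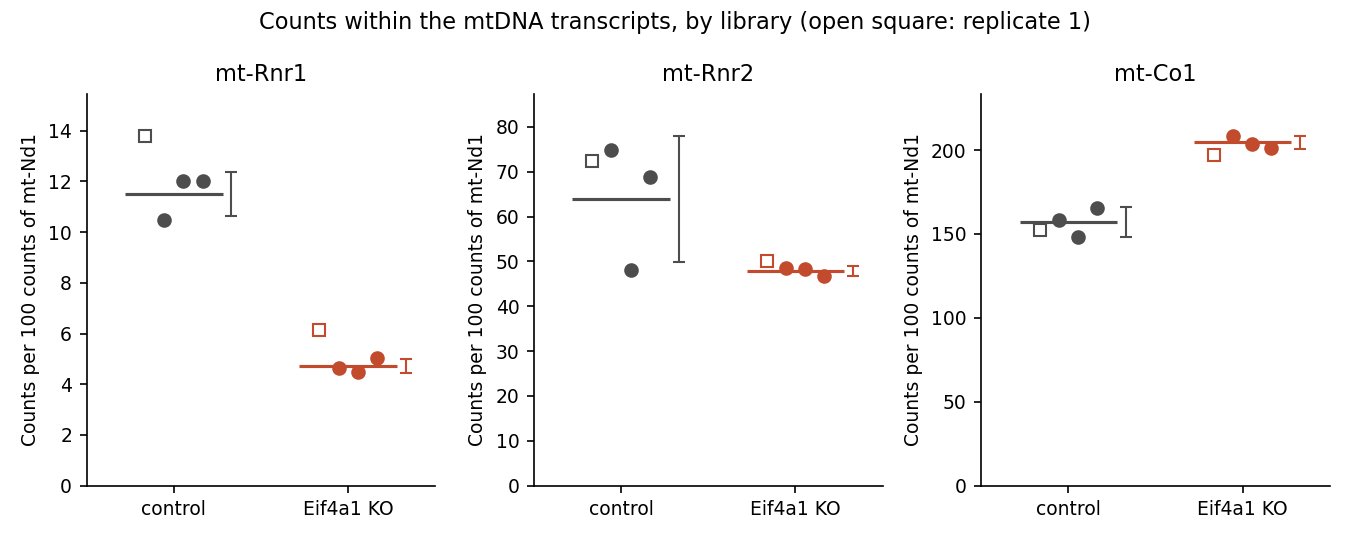
Counts of mt-Rnr1, mt-Rnr2 and mt-Co1 per 100 counts of mt-Nd1 in each library (vertical axes, linear from 0), by genotype. Open squares are replicate 1, lines and bars the mean and SD of replicates 2 to 4. mt-Rnr1 spans 4.48 to 6.13 in the KO and 10.5 to 13.8 in the controls, and mt-Co1 spans 197 to 209 in the KO and 148 to 165 in the controls.

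Of the 37 genes, 34 had a count in the 6 libraries compared and 20 had enough counts to be tested: all 13 protein-coding genes, both rRNAs and 5 tRNAs. Across the 20, 1 was called lower and 0 higher. Over all 14218 genes tested 25.3% were called, 13.7% lower and 11.6% higher, and the share among mtDNA genes, 1 of 20, stood below this background, with no test of that difference. By adjusted p alone 2 of the 20 were lower and 4 higher, which compares with 53% of all genes past the adjusted p in either direction. The 8 libraries did not overlap between genotypes for 3 of the 20 genes (mt-Rnr1, mt-Rnr2 and mt-Nd3) against 36.9% of all genes tested. The median log2 fold change was 0.11 over the 20 and 0.0066 over all genes.

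Of the 13 protein-coding genes, 0 were called, 3 were higher by adjusted p alone and 11 had a positive log2 fold change, with a median of 0.16. mt-Nd1 and mt-Nd6 turned negative without replicate 2 (-0.12 and -0.11). The 13 include 6 genes whose counts are no measure of their level, as described below, and the median is that of mt-Atp8, among these 6. The 13 genes share their libraries and are not separate observations. The transcripts are described by respiratory complex. mt-Co1 (chrM:5328-6872) encodes the catalytic subunit of cytochrome c oxidase, complex IV. It had the most counts of the 37 and the highest mean TPM. It stood at 3024, 2387, 3405 and 4058 CPM in controls 1 to 4 and 3909, 4130, 4341 and 4500 CPM in the KO libraries. KO 1 lay below control 4, and the other KO libraries lay above all controls. The log2 fold change was 0.43 ± 0.10 (adjusted p = 0.00582), short of the fold threshold, and the exact permutation p over 8 libraries was 0.0571. Per 100 counts of mt-Nd1 there were 152, 158, 148 and 165 counts of mt-Co1 in the controls and 197, 209, 204 and 201 in the KO, with no overlap. mt-Nd1 was taken as the reference after the counts had been seen. Ratios of mt-Co1 to other mtDNA genes were not computed and may overlap.

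Complex I has 7 subunits encoded in mtDNA, all in its membrane arm. mt-Nd1 was at 1983, 1510, 2299 and 2452 CPM in the controls and at 1984, 1979, 2129 and 2239 CPM in the KO. The KO values fell within the control range, and the log2 fold change of 0.05 had a 95% interval of -0.16 to 0.26. mt-Nd2 (chrM:3914-4951) was at 1350, 953, 1527 and 1464 CPM against 1202, 1159, 1228 and 1270 CPM, a log2 fold change of -0.08 (adjusted p = 0.515) that was -0.26 (adjusted p = 0.0101) without replicate 2. mt-Nd4 (chrM:10167-11544) was at 811, 535, 822 and 858 CPM against 820, 837, 842 and 917 CPM (log2 fold change 0.26, adjusted p = 0.0594), and its log2 fold change was 0.06 (adjusted p = 0.362) without replicate 2 but 0.37 (adjusted p = 0.00849) without replicate 3 and 0.34 (adjusted p = 0.00484) without replicate 4. Control 2 was the lowest library for each of these 3 genes.

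mt-Nd5 (chrM:11742-13565) passed the adjusted p. It was at 1688, 1330, 1829 and 2141 CPM in the controls and at 1815, 2066, 2187 and 2292 CPM in the KO. The groups overlapped, and the log2 fold change was 0.33 ± 0.09 (adjusted p = 0.0107). mt-Nd6 (chrM:13552-14070), the only protein-coding gene of the other strand, was at 15.5, 13.2, 20.2 and 28.7 CPM against 14.4, 18.8, 24.2 and 20.8 CPM (log2 fold change 0.09, adjusted p = 0.665), and at 0.38 (adjusted p = 0.00707) without replicate 4. The remaining members of the complex had few counts. mt-Nd3 (chrM:9459-9806) was at 2.05, 1.68, 1.49 and 1.72 CPM in the controls and at 1.27, 1.48, 1.23 and 1.24 CPM in the KO, a log2 fold change of -0.31 (adjusted p = 0.201). mt-Nd4l (chrM:9877-10173) was at 0.774, 0.767, 0.890 and 1.38 CPM against 0.633, 1.04, 1.21 and 1.21 CPM (0.21, adjusted p = 0.481).

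Complex III takes 1 subunit from mtDNA, cytochrome b. mt-Cytb (chrM:14145-15288) was at 2498, 1677, 2508 and 2675 CPM in the controls and at 2661, 2542, 2696 and 2833 CPM in the KO. The libraries overlapped, with control 2 far below the other controls, and the log2 fold change was 0.26 ± 0.09 (adjusted p = 0.0357). The other 2 mtDNA-encoded subunits of complex IV had few counts and did not differ by the test. mt-Co2 (chrM:7013-7696) was at 4.05, 3.54, 5.85 and 5.69 CPM against 5.13, 4.64, 6.41 and 6.14 CPM (log2 fold change 0.20, adjusted p = 0.188). mt-Co3 (chrM:8607-9390) was at 3.92, 3.69, 5.58 and 4.61 CPM against 3.70, 3.94, 5.42 and 5.04 CPM (0.06, adjusted p = 0.706).

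Both ATP synthase genes, which encode parts of its membrane domain, were similarly low in counts. mt-Atp6 (chrM:7927-8607) was at 4.87, 4.28, 7.34 and 5.49 CPM in the controls and at 5.88, 5.53, 6.95 and 6.23 CPM in the KO (log2 fold change 0.15, adjusted p = 0.344). mt-Atp8 (chrM:7766-7969) was at 1.62, 1.46, 2.81 and 2.11 CPM against 1.87, 2.10, 2.84 and 2.12 CPM (0.16, adjusted p = 0.463). For both genes the genotypes overlapped.

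The higher levels of mt-Co1, mt-Nd5 and mt-Cytb varied with the replicates included. Without replicate 2 their log2 fold changes were 0.25 (adjusted p = 0.0219), 0.18 (adjusted p = 0.0532) and 0.09 (adjusted p = 0.171). Without replicate 4 they were 0.57, 0.45 and 0.35, and without replicate 3 they were 0.47, 0.37 and 0.35, all past the adjusted p. With genotype as the only term, without the replicate block, all 3 missed the adjusted p, at 0.0961, 0.155 and 0.276. DESeq2 with the block gave adjusted p of 0.0196, 0.000385 and 0.00751, and edgeR over all 8 libraries gave 0.00358, 0.0201 and 0.0943.

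**Figure D3:**
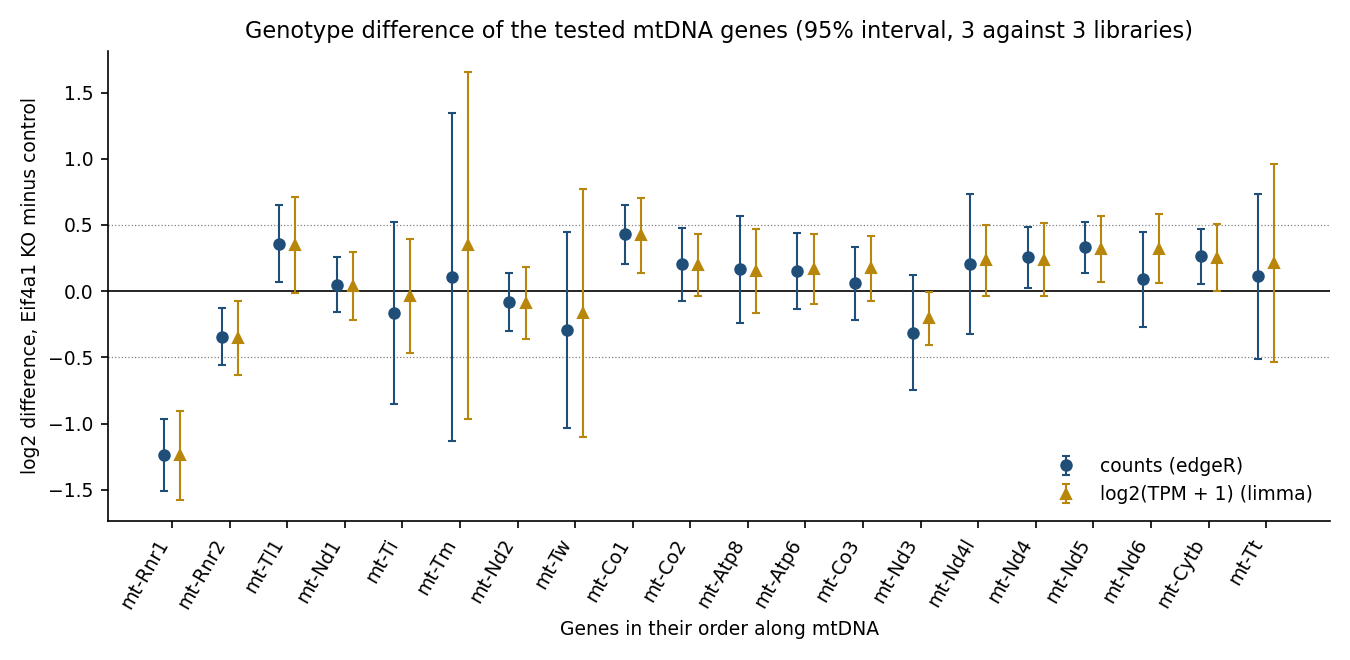
Difference of Eif4a1 KO minus control on the log2 scale (vertical axis) for the 20 tested mtDNA genes, placed in their order along mtDNA (horizontal axis), from counts (circles) and from log2(TPM + 1) (triangles). Bars are 95% intervals, 3 against 3 libraries, and dotted lines mark 0.5 in each direction. mt-Rnr1 stands at -1.24 in both measures, and the protein-coding genes lie between -0.31 and 0.43 in counts.

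The 3 overlaps of more than 1 base between protein-coding genes are shown because a read over them covers bases of both genes. mt-Atp6 and mt-Co3 share only base 8607, which is not shown. Capitals mark the shared bases, 43 for mt-Atp8 and mt-Atp6, 7 for mt-Nd4l and mt-Nd4, and 14 for mt-Nd5 and mt-Nd6. The first 2 pairs are read from 1 RNA each, and the last pair lies on opposite strands.
mt-Atp8 and mt-Atp6 (chrM:7912-7984): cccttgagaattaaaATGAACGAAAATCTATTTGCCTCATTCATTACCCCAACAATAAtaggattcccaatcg
mt-Nd4l and mt-Nd4 (chrM:10152-10188): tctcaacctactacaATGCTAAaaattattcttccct
mt-Nd5 and mt-Nd6 (chrM:13537-13580): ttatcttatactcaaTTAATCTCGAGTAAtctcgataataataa

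Few tRNAs gave reads that could be counted. Of the 22, 19 had any count in the 6 libraries, 5 were tested and 3 had a mean of at least 1 CPM. mt-Tl1, whose sequence stands above between mt-Rnr2 and mt-Nd1, was at 42.2, 32.4, 27.3 and 50.6 CPM in the controls and at 43.1, 42.9, 46.1 and 48.3 CPM in the KO. Controls 2 and 3 were the lowest libraries, and control 4 was the highest. The log2 fold change was 0.36 ± 0.13 (adjusted p = 0.0424), but 0.17 (adjusted p = 0.246) without replicate 3 and 0.24 (adjusted p = 0.203) over all 8 libraries. Without replicate 4 it was 0.58 (adjusted p = 3.50e-05), past both thresholds. The adjusted p was 0.263 without the replicate block.

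The tRNA for tryptophan, mt-Tw (chrM:4950-5016), was at 3.97, 3.86, 1.18 and 6.10 CPM against 2.82, 2.62, 2.49 and 2.96 CPM (log2 fold change -0.29, adjusted p = 0.475). The tRNA for threonine, mt-Tt (chrM:15289-15355), was at 3.92, 2.75, 1.52 and 4.18 CPM against 2.91, 2.85, 3.16 and 2.68 CPM (0.11, adjusted p = 0.757). Control 3 was the lowest library for both, and the value for mt-Tw was -0.81 (adjusted p = 0.00565) without replicate 3 and turned to 0.18 without replicate 4, while that for mt-Tt turned to -0.30 without replicate 3. The other 2 tRNAs tested, mt-Ti and mt-Tm, were under 1 CPM in every library, with adjusted p of 0.672 and 0.885. The highest count of the 8 tRNAs encoded on the other strand was 12 reads in any library.

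The tRNAs on either side of mt-Rnr1 had too few reads for the count test, and their values are given for their position. mt-Tf had 8, 5, 11 and 18 reads in controls 1 to 4 and 1, 4, 1 and 5 in the KO libraries. mt-Tv had 11, 12, 10 and 12 reads against 6, 8, 7 and 7. In CPM, the KO libraries lay below all controls for both tRNAs, as for the 2 rRNAs beside them, where 36.9% of all genes tested did not overlap. These 4 neighbours were grouped after their values were seen. At under 20 reads counting error is large, and a read on these tRNAs can also touch the adjoining rRNA gene.

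The second deposited measure, TPM (transcripts per 1000000 transcripts), is scaled to gene length and gave values for all 37 genes. mt-Rnr1 was at 518, 308, 540 and 600 TPM in the controls and at 225, 177, 188 and 225 TPM in the KO (log2 difference -1.24, limma on log2(TPM + 1), adjusted p = 0.00124). mt-Tf was at 5.48, 3.99, 7.34 and 12.5 TPM against 1.22, 3.00, 1.29 and 3.38 TPM (-1.27, adjusted p = 0.0141). mt-Tf was not called without replicate 3 or with no filter on low TPM. These 2 of 37 were called lower and 0 higher, where 20.2% of the 12976 genes tested in TPM were called. By adjusted p alone 4 of the 37 were lower and 4 higher, beside 50.7% of all genes. The 4 lower were mt-Tf, mt-Rnr1, mt-Tv (-0.36, adjusted p = 0.0479) and mt-Rnr2 (-0.35, adjusted p = 0.0435). The 4 higher were mt-Co1 (0.42, adjusted p = 0.0254), mt-Ts1 (0.44, adjusted p = 0.0305), mt-Nd5 (0.32, adjusted p = 0.0426) and mt-Nd6 (0.32, adjusted p = 0.0474). Without the replicate block the adjusted p in TPM was 0.154 for mt-Rnr2, 0.124 for mt-Co1, 0.206 for mt-Nd5 and 0.220 for mt-Nd6, and with no filter on low TPM these 4 missed it too, at 0.158 to 0.210.

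TPM sets the levels of the transcripts side by side per length. Over the 6 libraries mt-Co1 averaged 4988 TPM, mt-Nd1 4141 TPM, mt-Cytb 4098 TPM, mt-Nd2 2315 TPM and mt-Nd5 2112 TPM. mt-Nd6 was listed at 2241 TPM, but its strand-specific counts were far lower for its length, so it is given no place in this order. mt-Rnr2 averaged 1385 TPM and mt-Rnr1 339 TPM. The control range of mt-Nd1, 2927 to 4985 TPM, overlapped that of its neighbour in this order, mt-Cytb, at 2720 to 4540 TPM. The rRNAs were thus listed below most messenger RNAs of mtDNA in these libraries, and whether the libraries had been depleted of rRNA or enriched for poly(A) RNA is not given in the sources used here.

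The share of all counted reads on the 37 genes overlapped between genotypes. It was 1.32%, 0.974%, 1.38% and 1.59% in controls 1 to 4 and 1.35%, 1.39%, 1.45% and 1.54% in KO 1 to 4. Control 2 was lowest, and the KO libraries fell inside the range of the controls. The mean of replicates 2 to 4 was 1.31% ± 0.312 in the controls and 1.46% ± 0.0743 in the KO (SD, n = 3), a ratio of 1.11 that was 1.42, 1.05 and 0.967 in replicates 2, 3 and 4. Within this share, the 2 rRNAs took 9.97% to 13.2% of the mtDNA counts in the 4 controls and 7.56% to 8.20% in the 4 KO libraries, without overlap. Over replicates 2 to 4, the spread between libraries was larger in the controls for 15 of 16 genes (the rRNAs, the protein-coding genes and mt-Tl1). Their coefficient of variation ran from 7.53% to 37.5% in the controls and from 4.29% to 17.7% in the KO, and mt-Nd3 was the exception over these 3 replicates. These genes share their libraries, with control 2 low in the mtDNA share, and are not separate observations of the spread.

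The 6 protein-coding genes with the fewest counts lie in a stretch of mtDNA that also exists on chromosome 1. A copy of mtDNA 6390 to 11042 at chr1:24650616-24655269, on the minus strand, is 99.9% identical over 4654 aligned bases. Of the windows of 50 bases within mt-Co2, mt-Atp8, mt-Atp6, mt-Co3 and mt-Nd4l, 0.0% were found only in mtDNA, and for mt-Nd3 the share was 1.0%. It was 48.9% for mt-Co1, 37.8% for mt-Nd4, 93.9% for mt-Rnr2 and 100.0% for mt-Rnr1, mt-Nd1 and mt-Cytb. No window of 50 bases of mt-Rnr1 was thus found unchanged in the nuclear genome.

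The places where the chromosome 1 copy differs from mtDNA inside mt-Nd3 and the arginine tRNA mt-Tr (chrM:9808-9875) are shown because few bases tell the copies apart. The remaining difference between them, A6393T, lies in mt-Co1. Positions count from 1 at the start of mtDNA, the mtDNA base comes first, and capitals mark the base or run that differs. T9461C lies in mt-Nd3, and a run of 8 A in mt-Tr has 9 A in the copy.
mt-Nd3, mtDNA: gaagagagtaatTaacctgtacact
mt-Nd3, chromosome 1 copy: gaagagagtaatCaacctgtacact
mt-Tr, mtDNA: gtttAAAAAAAAttaatgatttcga
mt-Tr, chromosome 1 copy: gtttAAAAAAAAAttaatgatttcg

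For these genes counts and TPM gave different levels. The 6 rRNA and protein-coding genes of the heavy strand with over 90% of windows found only in mtDNA had 0.513 to 0.531 CPM per kb for each TPM. The 6 genes inside the copy had 0.00477 to 0.0103. mt-Co2, for example, had 143 to 263 reads but 988 to 1746 TPM, and the pseudogene Gm28661 at the same place of the copy had 165 to 285 reads and 0.999 to 1.01 times the TPM of mt-Co2 in every library. How reads matching both places were assigned is not given in the sources used here, so the low counts of these 6 genes are no measure of their level.

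The 7 pseudogenes of the copy were all tested and 0 were called, beside 25.3% of all genes, and their log2 fold changes ran from 0.05 for Gm10222 to 0.64 for Gm28438 (adjusted p = 0.851 and 0.393). Gm28438 had 163 reads in KO 4 and 15 to 53 in the other 7 libraries. Gm10925 had 246 to 367 reads, Gm28439 93 to 172, Gm10222 28 to 59 and Gm29216 46 to 95. Gm28437, which matches mt-Co3, had 1703 reads in control 1 and 182 to 263 in the other 7 libraries. Gm13340, in a copy of 97.4% identity at chr2:22477300-22480546, had 74 to 127 reads (log2 fold change 0.35, adjusted p = 0.0943).

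Genes of the other strand also differed between the 2 measures. Of the 37 genes 28 are annotated on the plus strand of the reference, made from the heavy strand, and 9 on the minus strand: mt-Nd6 and 8 tRNAs. mt-Nd6 had 456 to 1251 reads and 0.0180 CPM per kb for each TPM. The glutamate tRNA mt-Te had 2 to 11 reads but 1006 to 1791 TPM, and it lies next to mt-Cytb on the opposite strand. The counts were made from one strand, whereas the strand setting behind the TPM is not given in the sources used here. The TPM values of mt-Nd6 and mt-Ts1 above are thus not known to come from their own strand.

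**Figure D4:**
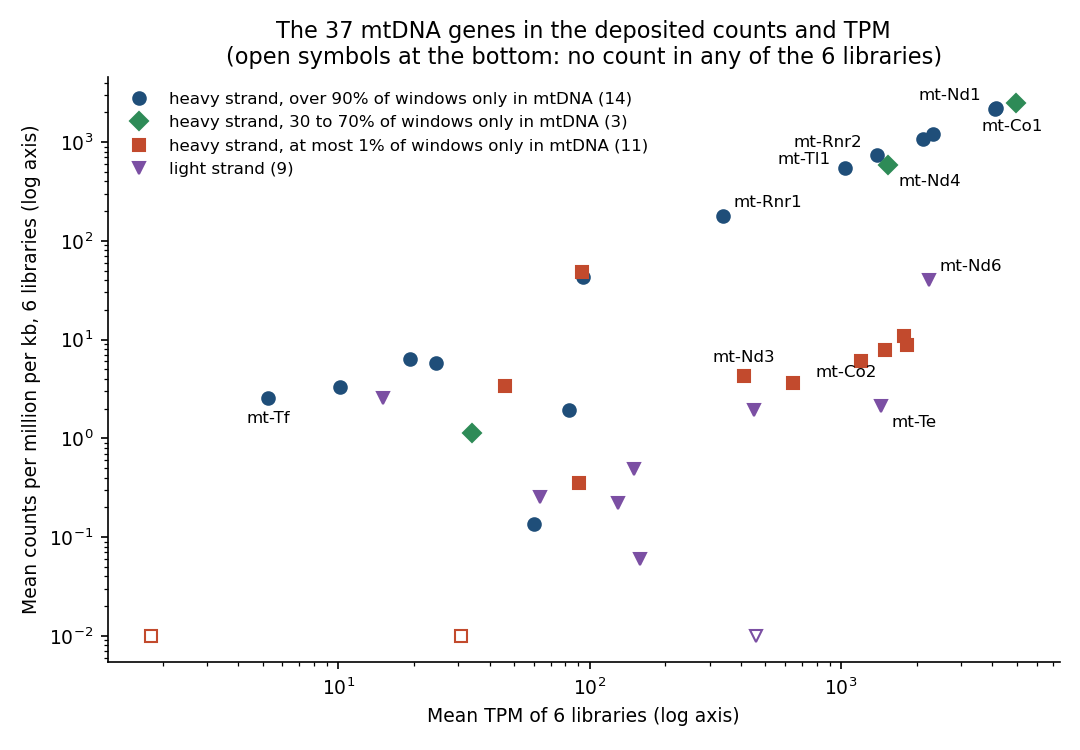
Mean CPM per kb (vertical log axis) against mean TPM (horizontal log axis) of the 37 mtDNA genes over the 6 libraries, with symbols by strand and by the share of 50-base windows found only in mtDNA. Open symbols at the bottom edge had no count. mt-Rnr1 lies among the heavy-strand genes with their own sequence at 0.529 CPM per kb for each TPM, and mt-Co2, mt-Nd6 and mt-Te lie far below them.

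The nuclear genes that maintain and express mtDNA were examined as 6 lists of 172 genes in all, every one tested. Of these, 24 were called lower and 8 higher, and their median log2 fold change was -0.15. The share called, 18.6%, is under the 25.3% of all genes.

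The core genes of mtDNA transcription did not pass the test. The RNA polymerase gene Polrmt was at 61.3 ± 3.96 CPM in the controls and 60.6 ± 2.51 CPM in the KO (SD, n = 3). Tfam, which packages mtDNA and opens its promoters, was at 80.3 ± 2.05 and 81.3 ± 1.70 CPM. The initiation factor gene Tfb2m was at 25.0 ± 1.19 and 27.6 ± 1.52 CPM, and the elongation factor gene Tefm at 8.78 ± 1.72 and 9.93 ± 0.161 CPM. Their log2 fold changes were -0.02, 0.02, 0.14 and 0.19, with adjusted p of 0.843, 0.790, 0.117 and 0.229. Among 18 genes of this list 1 was called in each direction (11.1%), both of them coactivators of nuclear genes for mitochondria: Pprc1 rose from 195 ± 14.4 to 300.3 ± 31.5 CPM (log2 fold change 0.62, adjusted p = 3.94e-05) and Ppargc1b fell from 12.7 ± 1.88 to 8.48 ± 1.16 CPM (-0.58, adjusted p = 0.000800).

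Of 14 genes of mtDNA replication and its nucleoid, 4 were called lower and 0 higher, a share of 28.6% that is near the 25.3% of all genes. Dna2, a nuclease and helicase that also works in the nucleus, was at 31.5 ± 4.97 CPM in the controls and 9.80 ± 4.61 CPM in the KO (-1.75, adjusted p = 2.70e-05). Mgme1, an exonuclease of mtDNA, was at 21.7 ± 3.85 and 10.9 ± 2.30 CPM (-0.99, adjusted p = 3.75e-05). Exog, a further mitochondrial nuclease, had a log2 fold change of -0.74 (adjusted p = 0.000515).

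In RNA processing and decay, 2 of 22 genes were called lower and 3 higher, or 22.7%, also near the share of all genes. Pde12, which trims poly(A) tails in mitochondria, rose from 114 ± 14.6 to 166 ± 17.7 CPM (0.55, adjusted p = 3.48e-05). Fastk, of a family of mitochondrial RNA-binding proteins, rose from 73.4 ± 3.32 to 107 ± 2.32 CPM (0.54, adjusted p = 4.95e-05), whereas its relative Fastkd3 fell from 29.8 ± 3.82 to 15.3 ± 3.72 CPM (-0.98, adjusted p = 3.82e-05). Lrpprc and Slirp encode the partners that stabilise the messenger RNAs of mtDNA. Lrpprc was at 274 ± 1.35 and 297 ± 11.7 CPM (0.12, adjusted p = 0.0513). Slirp was at 22.5 ± 2.65 and 15.8 ± 0.932 CPM, and its log2 fold change of -0.50 passed the adjusted p (0.00281) but lay at the fold threshold, and it was called in DESeq2, without the replicate block and without replicate 4 (-0.63).

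Of 23 genes that modify mitochondrial tRNA and rRNA, 4 were called lower and 3 higher, or 30.4% beside 25.3% of all genes. The demethylase gene Alkbh1 rose from 84.6 ± 10.7 to 140 ± 15.7 CPM (0.73, adjusted p = 1.89e-05), and Yrdc, needed for a threonyl modification of tRNA, rose by 0.53 on the log2 scale (adjusted p = 8.66e-05) but stood at 0.48 without replicate 3, inside the fold threshold. The methyltransferase gene Trmt2b fell from 30.4 ± 3.72 to 18.1 ± 3.05 CPM (-0.75, adjusted p = 8.35e-05). Of 19 mitochondrial aminoacyl-tRNA synthetases 3 were called lower and 0 higher (15.8%), among them Cars2 for cysteine (-0.61, adjusted p = 0.000155) and Wars2 for tryptophan (-0.50, adjusted p = 0.00226). Wars2 lay at the fold threshold and was not called in 5 alternatives, where it stood at -0.50 to -0.43, among them the fit without the replicate block.

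The nuclear genes for proteins that join the 2 rRNAs in the mitochondrial ribosome numbered 78. Of these, 10 were called lower and 1 higher, 14.1% in all and under the 25.3% of all genes. Of the 78, 61 had a negative log2 fold change, and the median was -0.23 beside 0.0066 over all genes. The 29 genes of the small subunit, the partners of mt-Rnr1, had a median of -0.22 with 3 called lower and 0 higher. The 49 genes of the large subunit had a median of -0.28 with 7 called lower and 1 higher. Mrpl18 fell from 96.7 ± 3.55 to 58.0 ± 7.33 CPM (-0.74, adjusted p = 3.78e-05), Mrps27 from 93.8 ± 1.87 to 62.0 ± 2.51 CPM (-0.60, adjusted p = 4.39e-05) and Mrps23 from 80.6 ± 0.462 to 53.0 ± 2.73 CPM (-0.61, adjusted p = 4.91e-05). By adjusted p alone 51 of the 78 were lower and 4 higher, beside 53% of all genes in either direction.

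The nuclear subunits of the complexes that hold mtDNA-encoded proteins were also described. Of 73 genes 2 were called lower and 0 higher, 2.74% and far under the 25.3% of all genes, both in complex I: Ndufb10 (-0.62, adjusted p = 9.52e-05) and Ndufa8 (-0.52, adjusted p = 0.000202). Ndufa8 stood at -0.49 without replicate 2 and at -0.48 without replicate 3, inside the fold threshold, while Ndufb10 was called in both. The median log2 fold change was -0.12, and 56 of the 73 were negative. The genes of smallest adjusted p in the complexes without a call were Uqcrh (-0.24) and Uqcrfs1 (-0.18) in complex III, Cox5a (-0.32) and Cox6b1 (-0.24) in complex IV, and Atp5pb (-0.34) and Atp5c1 (-0.36) in complex V. In complex II, whose subunits are all nuclear, 1 of 4 genes was called, Sdhd, at 155 ± 6.53 and 93.7 ± 7.24 CPM (-0.73, adjusted p = 2.23e-05).

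Summed over genes, the mtDNA-encoded messenger RNAs stood at 1.07, 0.778, 1.25 and 1.44 times the CPM of the 73 nuclear genes in controls 1 to 4 and at 1.20, 1.27, 1.43 and 1.49 times in KO 1 to 4. The genotypes overlapped, and control 2 was lowest. The sums hold 6 mtDNA genes whose counts are no measure of their level, so the multiples compare libraries and not levels of the 2 gene groups.

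**Figure D5:**
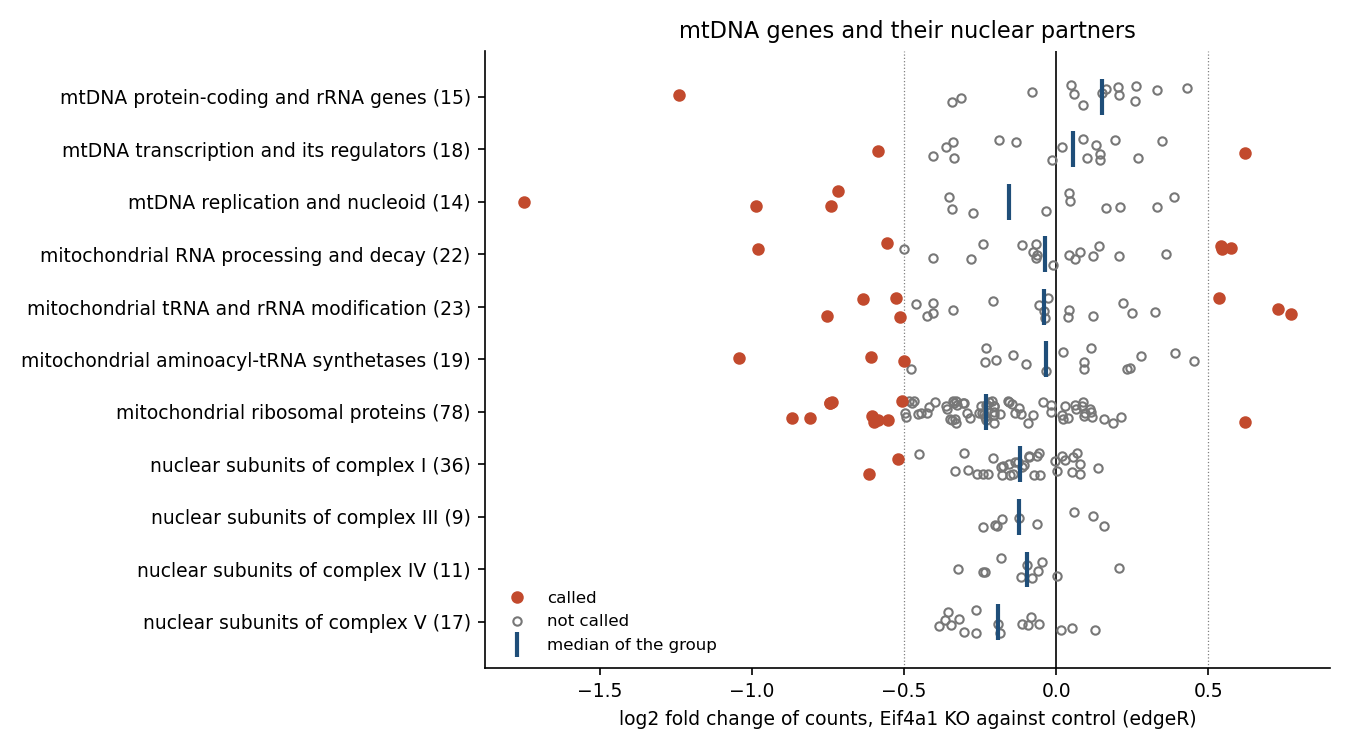
Log2 fold change of counts, Eif4a1 KO against control (horizontal axis), with 1 circle per gene for the 15 protein-coding and rRNA genes of mtDNA (top) and for each group of nuclear genes, whose size stands in parentheses. Filled circles were called, and bars are group medians. Of the 15 mtDNA genes drawn only mt-Rnr1 is called, and the mitochondrial ribosomal proteins have their median at -0.23.

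The difference between genotypes was tested for dependence on sex and on batch over all 8 libraries. Of the 20 mtDNA genes tested, 0 passed the adjusted p for an interaction with sex and 0 for one with batch in edgeR, with a smallest adjusted p of 1 and 0.999. Over all 14211 genes in that fit 0 and 1 passed, so these counts do not set the mtDNA genes apart. At an unadjusted p under 0.05 there were also 0. Each combination of sex, batch and genotype had 1 library.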

How the data were processed

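The authors trimmed paired reads of 50 bases with TrimGalore 0.6.6, mapped them to GRCm39 with HISAT2 2.1.0 and deposited raw counts per gene from SeqMonk, taken from one strand of the Ensembl annotation with isoforms merged. The authors also deposited TPM per gene, computed with StringTie 2.1.1 from the same alignments. Libraries held 31727557 to 43210858 counted reads.

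Counts were tested with edgeR 4.0.16 in R 4.3.3 (quasi-likelihood test, TMM, filterByExpr) with batch and sex as covariates, as in the study's design, two-sided, with p adjusted by Benjamini-Hochberg over all 14218 genes tested. In these 6 libraries batch and sex span the same terms as a replicate block, and the pairing comes from the labels. Same-numbered libraries deviated together (r of 0.594, 0.502 and 0.432, against -0.435 to 0.0186 for the other pairs). With 3 libraries per genotype these r are not independent of each other, so the low values of the other pairs are no separate evidence. CPM are counts over the library total times its TMM factor. TPM were tested with limma 3.58.1 on log2(TPM + 1), after dropping genes whose mean was under 1 TPM. Fold changes in TPM are on that scale, which understates changes of low genes. The scripts were tested on simulated data. A called gene has an adjusted p under 0.05 and a log2 fold change beyond 0.5. DESeq2 1.42.0, other normalizations, filters and designs, and leaving out each replicate were the alternatives.

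Nuclear copies of mtDNA were found with blastn 2.17.0 (e-value 1e-10). Copies of at least 95% identity and 100 bases were matched to genes. Gene positions are from GENCODE on GRCm39. Named genes were all protein-coding and rRNA genes, tRNAs with a mean of at least 1 CPM, the 3 called genes of smallest adjusted p in each nuclear list (or the 2 genes of smallest adjusted p where none was called), Polrmt, Tfam, Tfb2m, Tefm, Lrpprc, Slirp, and pseudogenes with a mean of at least 1 CPM. A gene named by this rule is not reported here. The members and lists were chosen with earlier results of these data known. The comparison with nuclear copies, of counts with TPM and of the rRNAs and mt-Co1 with mt-Nd1 were added after seeing the data. p-values concern these animals only. The SE and p of edgeR and limma use variance estimates shared across genes, so they do not rest on a gene's own libraries alone.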

Additional observations from a re-analysis of the deposited data

Results flagged for a closer look

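Libraries were screened for values far from the other 3 of their genotype, as the gap to the nearest library over the whole range of the group, with Dixon's limit of 0.829 for 4 libraries. Of 84 groups examined 6 passed, where chance at 1 in 20 gives 4.2. For mt-Rnr1 in the controls the gap was 0.849, from control 2 at 158 CPM against 274 to 294 CPM. For mt-Nd4 in the controls it was 0.853, again from control 2, at 535 CPM against 811 to 858 CPM. For mt-Nd3 in the Eif4a1 KO it was 0.867, from KO 2 at 1.48 CPM against 1.23 to 1.27 CPM. For mt-Co3 in TPM in the KO it was 0.835, from KO 4 at 1388 TPM against 1184 to 1217 TPM. The pseudogenes Gm28438 (0.877, KO 4 at 3.81 CPM against 0.441 to 0.854 CPM) and Gm28437 (0.955, control 1 at 42.5 CPM against 4.50 to 6.21 CPM) passed too.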

How the results depend on the processing

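mt-Rnr1 was called lower in each alternative for counts and for TPM that was run, with log2 fold changes in counts from -1.46 to -1.02. The count of called mtDNA genes was 1 in the other alternatives and 2 to 3 when 1 replicate was left out, adding mt-Tf without replicate 2, mt-Tw without replicate 3, and mt-Tl1 and mt-Co1 without replicate 4. In TPM the count was 1 with no filter on low values, 3 over all 8 libraries, which added mt-Tv, and 2 to 6 with 1 replicate left out. Of the nuclear subunits of complexes I, III, IV and V, 1 was called with upper quartile normalization and 1 over all 8 libraries, and 1 to 3 with 1 replicate left out. Without the replicate block, which rests on batch and sex, the counts of called genes were 1, 32, 2 and 2 for mtDNA genes, nuclear partners, nuclear subunits and mtDNA genes in TPM, and no call on a named mtDNA gene changed, while the adjusted p of mt-Rnr2, mt-Co1, mt-Nd5, mt-Cytb and mt-Tl1 rose as given above. The share of counts on mtDNA genes kept a ratio of KO to control between 1.01 and 1.21. Directions that turned belonged to genes short of the adjusted p in the reported fit. Without 1 replicate the lowest and highest log2 fold changes were -0.12 and 0.14 for mt-Nd1, -0.26 and 0.043 for mt-Nd2, -0.11 and 0.38 for mt-Nd6, -0.81 and 0.18 for mt-Tw, -0.30 and 0.54 for mt-Tt, -0.058 and 0.036 for Polrmt, and -0.0017 and 0.058 for Tfam. In TPM they were -0.13 and 0.14 for mt-Nd1, -0.27 and 0.017 for mt-Nd2, -0.064 and 0.28 for mt-Atp8, and -0.0068 and 0.26 for mt-Atp6. mt-Tt was at -0.081 over all 8 libraries, and Polrmt at 0.0073 with upper quartile normalization. The cause of these changes was not tested. Counting error is large for tRNAs of a few reads per library, such as mt-Tf, and the counts of the 6 genes inside the chromosome 1 copy are no measure of their level.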
